A study of Mus musculus with 6 samples.

Results

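Immediate early genes and the genes that feed back on mitogen-activated protein kinase (MAPK) signalling were followed in mouse inguinal fat cells given rosiglitazone. The set was a list of 41 named genes, each read from its probe set with the highest mean intensity among those annotated with that gene symbol alone. All 41 had such a probe set among the 18193 genes named on the array, and 39 passed a filter on low intensity that kept 12936 genes. Of the 41, 21 encode transcription factors, 12 encode feedback regulators of MAPK signalling and 8 are other early response genes. Fosb and Dusp5 were too dim to pass the filter.

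Immediate early genes are transcribed soon after a cell meets a growth factor, cytokine or stress, from factors already present and without new protein synthesis. The kinases ERK, JNK and p38 act on serum response factor (SRF) with its ETS partners, and on CREB, which switch on genes such as Fos and Egr1. The FOS and JUN proteins pair to form the AP-1 transcription factor, and the EGR proteins bind GC-rich sites. The same signal also induces its own brakes: dual-specificity phosphatases (DUSP) that inactivate the kinases, Sprouty and SPRED proteins that restrain the RAS to ERK pathway, and Errfi1, an inhibitor of the epidermal growth factor receptor. In fat, ERK and AP-1 activity accompany the proliferation and early commitment of precursor cells.

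The samples were fat cells differentiated in culture from the inguinal depot, a subcutaneous white fat depot, with RNA hybridised on 3 arrays for controls and 3 for cells that received rosiglitazone at 1 uM over 4 days. This thiazolidinedione drug activates the nuclear receptor PPARγ, and the effect named in the labels is beiging for treated cells and non-activated for controls. Strain, genotype, age and the control vehicle are not given in the sources used here. No source tells whether the samples within a group were separate cultures, so the p-values cover only the spread among these 6 samples, and that spread may be technical.

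The genes of this set were predominantly lower with rosiglitazone. Of the 39 tested, 30 fell and 3 rose at an adjusted p under 0.05, where 35.7% of all 12936 genes tested were lower and 23.6% higher, 59.2% in either direction. By at least 2-fold, 9 of the 39 fell and 1 rose, against 4.49% and 1.48% of all genes. All 3 treated arrays lay below all 3 control arrays for 30 of the 39 and above them for 3, against 38.2% and 25.7% of all genes. The median log2 change of the 39 was −0.67, and that of all genes tested was −0.05.

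The falls were deeper among the transcription factors than among the feedback regulators, as counted here without a test between the classes. Of 20 transcription factors tested 17 fell and 3 did not pass the test. The median log2 change of the 20 was −0.70, and 6 falls were of at least 2-fold. Among these 6 is Nr4a3, which passed the filter on low intensity only through its control arrays. Of 11 feedback regulators tested 8 fell, 1 rose and 2 did not pass, with a median of −0.22 and 2 falls of at least 2-fold. The feedback falls ranged from −1.36 for Errfi1 to −0.12 for Spred2, and 4 of the 8 were smaller than 0.5 in size. On array scales that moved the median of all genes upward, fewer of them passed. After quantile normalization or median centring 5 of 11 feedback regulators fell, while 16 and 15 of 20 transcription factors did. The same settings called 29.1% and 25.2% of all genes lower. Across the alternative settings tried, the median of the transcription factors lay between −0.57 and −0.73 and that of the feedback regulators between −0.10 and −0.25.

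**Figure D1:**
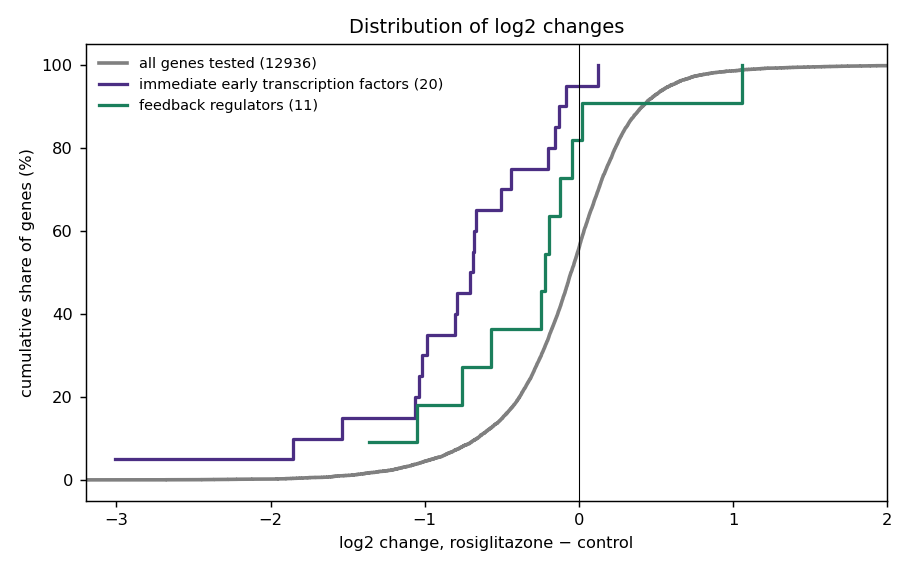
Cumulative share of genes (vertical axis, percent) by log2 change with rosiglitazone (horizontal axis) for all 12936 genes tested, 20 immediate early transcription factors and 11 feedback regulators. The curve of the transcription factors lies farthest to the left with its median at −0.70, that of the feedback regulators lies between at −0.22 and ends at the rise of Dusp10, and all genes are centred near −0.05.

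Promoter sequences are shown for Gadd45b, Fos and Errfi1, the third to the fifth in size of fall after Egr3 and Egr1, because these genes moved together and the known inputs of the immediate early response act through short promoter motifs. RefSeq sequences (GRCm38.p6) were found for 33 of the 41 genes, all but Ier2, Fosl1, Egr1, Egr3, Dusp4, Spry4, Myc and Klf10, and each window holds the 250 bases before an annotated start. Capitals mark matches on either strand to the cyclic AMP response element bound by CREB (TGACGTCA), its half-site (TGACG), the AP-1 site (TGANTCA), an EGR site (GCGNGGGCG) or the CArG box bound by SRF. A full element also holds 2 overlapping half-sites. The windows are Gadd45b at chr10:80929841-80930090, Fos at chr12:85473640-85473889 and Errfi1 at chr4:150854820-150855069, all on the plus strand. Of the 2 starts listed for Errfi1, the window with more matches is printed.
Gadd45b: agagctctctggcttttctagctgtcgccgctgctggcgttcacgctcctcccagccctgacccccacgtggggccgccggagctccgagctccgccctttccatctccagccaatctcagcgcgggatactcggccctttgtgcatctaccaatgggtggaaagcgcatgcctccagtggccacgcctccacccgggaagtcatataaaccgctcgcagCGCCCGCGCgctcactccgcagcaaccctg
Fos: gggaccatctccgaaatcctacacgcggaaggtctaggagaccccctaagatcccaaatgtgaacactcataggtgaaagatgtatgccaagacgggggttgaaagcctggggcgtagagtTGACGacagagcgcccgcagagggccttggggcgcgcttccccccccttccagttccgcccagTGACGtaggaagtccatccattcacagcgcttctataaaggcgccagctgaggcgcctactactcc
Errfi1: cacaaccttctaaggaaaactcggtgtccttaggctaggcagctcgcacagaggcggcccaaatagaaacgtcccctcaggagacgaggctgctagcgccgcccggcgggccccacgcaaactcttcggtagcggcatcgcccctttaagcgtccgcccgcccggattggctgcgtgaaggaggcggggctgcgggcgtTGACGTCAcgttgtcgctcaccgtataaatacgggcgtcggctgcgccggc

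The Gadd45b window held an EGR site at 30 to 22 bases before the start. In Fos there were 2 half-sites of the cyclic AMP response element, at 129 to 125 and at 66 to 62 bases before the start. Errfi1 held the full palindromic element at 51 to 44 bases before the start. No CArG box lay in these 3 windows, which says only that those letters are not within them.

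CArG boxes were found in the windows of Egr2 and Zfp36 among the lowered genes, and these matches are shown with 10 bases on each side because SRF is the classical factor of the immediate early response. They were chosen after the matches were seen. The Egr2 sites lie at chr10:67537484-67537513 and chr10:67537787-67537816 on the plus strand, upstream of different annotated starts, and the Zfp36 site at chr7:28379267-28379296 on the minus strand.
Egr2, first site: cggatcttctCCTTTTTTGGaaagtctcgg
Egr2, second site: gttcctcagtCCATATATGGgcagcgacgt
Zfp36: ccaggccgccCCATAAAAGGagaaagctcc

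Counted over genes, with a gene counted once if any of its windows matched, a CArG box was in 3 of the 33 genes with a sequence, against 1.62% of the 27025 genes in the table. The full cyclic AMP response element was in 4 of 33 (Btg2, Dusp1, Errfi1 and Maff), against 1.77%, and its half-site was in 17 of 33, against 19.8%. An EGR site was in 12 of 33, against 5.33%, and the AP-1 site was in 1, against 7.82%. These windows were richer in G and C than the others, at 63.0% against 53.2% of bases. Among the 24 lowered genes with a sequence, 12 had the half-site and 9 had the EGR site, while among the 6 genes not called or not tested 5 had the half-site and 3 had the EGR site. Of the 3 genes called higher, 0 held any of the 5 motifs in these windows.

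The EGR family, zinc finger transcription factors induced by growth factors through SRF and its ETS partners, held the 2 largest falls of the set. For Egr3 that rank depended on which probe set was read. Egr3 had intensities of 190.3, 228 and 229 on the control arrays and 31.4, 27.4 and 22.0 on the rosiglitazone arrays. Its log2 change was −3.01 (SE 0.14, adjusted p = 1.7e-11), and every treated array lay below every control array. The treated values were near the filter intensity of 26.6, so the size of the fall depends on the floor, and with a floor of 64 the change was −1.75 and still called. The second probe set of Egr3 did not show that fall, lying between 49.6 and 54.7 on the control arrays and between 47.6 and 52.3 on the treated arrays, with a log2 change of −0.04 (adjusted p = 0.82). The probe set used for Egr3 was the brightest only through its control arrays, with a control mean of 215.8 against 51.9. On the treated arrays the second probe set was the brighter, with means of 50.4 against 27.0. With the mean of its probe sets Egr3 changed by −1.53 and was still called lower. Under that rule its fall was smaller than those of Egr1 (−1.86) and Fos (−1.54).

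Egr1 read 1373, 1515 and 1359 in control cells and 384, 399 and 388 with rosiglitazone. It fell by 1.86 on the log2 scale (SE 0.05, adjusted p = 1.7e-14), with treated arrays within a narrow band. Egr2 read 792, 809.6 and 820.3 in control cells and 388, 404 and 388 in treated cells, a log2 change of −1.04 (SE 0.05, adjusted p = 8.4e-12). Its second probe set fell by 1.16. The EGR co-repressor gene Nab2, which is not a member of the set and is itself a target of EGR factors, fell by 1.25.

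In the FOS family, whose proteins pair with JUN proteins in AP-1, the 3 members tested fell under each scaling tried. Fos read 641, 712 and 633 on control arrays and 229.7, 222 and 231 on treated arrays. It fell by 1.54 on the log2 scale (SE 0.06, adjusted p = 1.2e-12), a 2.91-fold lower level without overlap between groups. Fosl1, which encodes FRA-1, a partner that accumulates under sustained ERK signalling, went from 137, 133 and 127 to 66.7, 75.2 and 89.8 (log2 change −0.79, SE 0.11, adjusted p = 1.6e-05). The fall of Fosl1 was smaller than that of Fos and its treated arrays were more spread. Fosl2, which encodes FRA-2, went from 1244, 1207 and 1171 to 730.4, 749 and 772 (log2 change −0.69, SE 0.04, adjusted p = 4.0e-10). A much dimmer probe set of Fosl2, at 33.6 to 58.4 over the 6 arrays, had a log2 change of −0.24 and did not pass (adjusted p = 0.36). Fosb lay near the floor of 16, at 27.1, 21.1 and 23.6 in control cells and 14.4, 28.9 and 25.2 in treated cells, and was not tested.

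The JUN family, the AP-1 subunits that can also pair with each other, fell by less than Fos. Jun read 962, 911 and 905 in control cells and 529.7, 596 and 606 with rosiglitazone (log2 change −0.68, SE 0.05, adjusted p = 9.6e-09), and its second probe set gave −0.61. Junb, from a dimmer probe set, went from 131, 173 and 143 to 96.2, 79.6 and 80.2 (log2 change −0.80, SE 0.12, adjusted p = 1.6e-05). Both genes were lower on every treated array. Jund, the JUN gene that is expressed more constantly than its relatives, went from 2725, 2649.5 and 2690.1 to 2227, 2325 and 2458, a change of only −0.20 (SE 0.04, adjusted p = 0.00013). After median centring the change of Jund was −0.08 and no longer passed (adjusted p = 0.098).

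**Figure D2:**
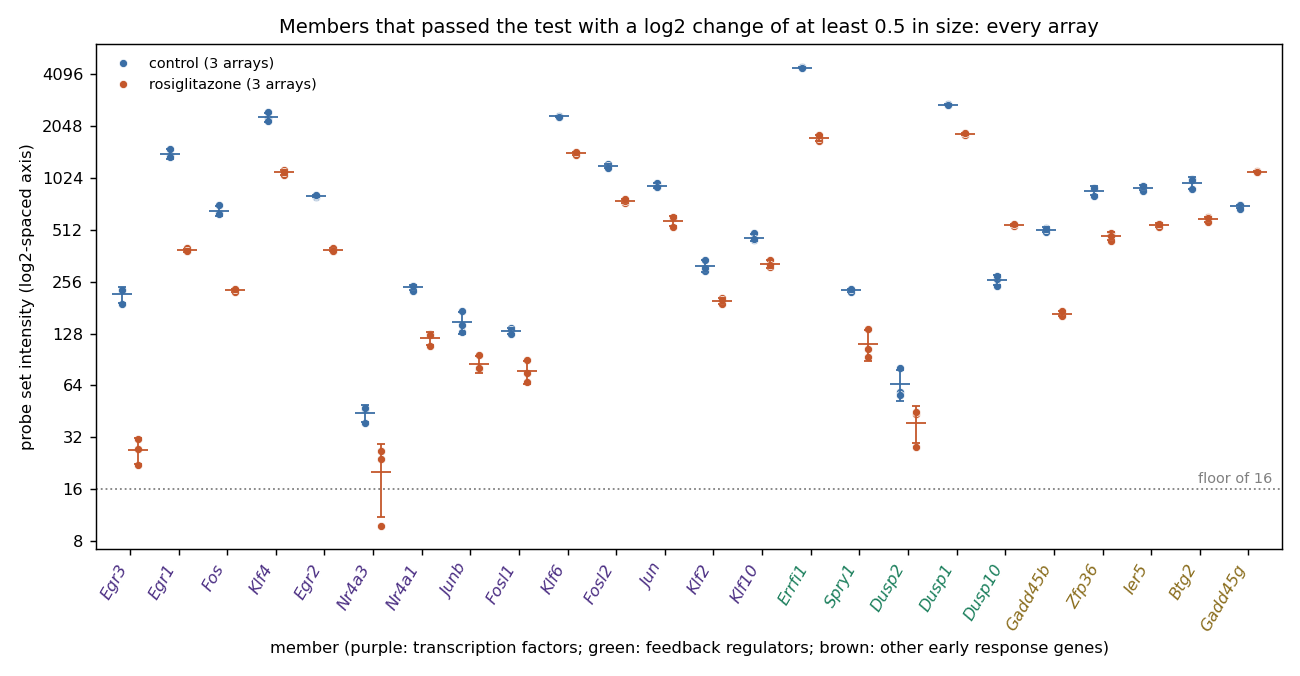
Probe set intensity (vertical axis, log2-spaced) on each of 3 control and 3 rosiglitazone arrays for the 24 members that passed the test with a log2 change of at least 0.5 in size, with horizontal marks at group means and bars of 1 SD. The groups do not overlap for any gene shown, Dusp10 and Gadd45g are higher in treated cells and the other genes are lower; the dotted line is the floor of 16.

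The NR4A genes encode orphan nuclear receptors induced by cyclic AMP and calcium signals, and only part of the family was called. Nr4a1, which encodes NUR77, went from 243, 227 and 243 to 128, 125 and 109 (log2 change −0.98, SE 0.08, adjusted p = 2.2e-08). Nr4a3 was dim, at 38.6, 46.6 and 47.1 in control cells and 23.9, 26.7 and 9.72 with rosiglitazone, and 1 of the treated arrays was below the floor (log2 change −1.02, with SE 0.24 and adjusted p = 0.0014). Those 2 genes were lower on every treated array. Nr4a3 passed the filter only through its control arrays, since its treated arrays lay near or under the filter intensity of 26.6. With a floor of 64, above all 6 readings of Nr4a3, that gene showed no change and its call was lost, and its second probe set, too dim for the filter, had means of 22.7 and 22.9. Nr4a2, which encodes NURR1, read 294, 287 and 241 in control cells and 302, 322 and 271 in treated cells, so the groups overlapped. Its log2 change was 0.12 (95% CI −0.05 to 0.30, adjusted p = 0.21) as deposited. On the quantile normalized and median-centred scales Nr4a2 was called higher, at 0.23 and 0.25. None of its other kept probe sets was called, and they differed in sign, from −0.22 (adjusted p = 0.086) to 0.30 (adjusted p = 0.42).

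The 4 Krüppel-like factors of the set, zinc finger proteins that include regulators of fat cell differentiation, fell under each scaling tried. Klf4, an early factor of the differentiation cascade, went from 2276, 2475 and 2194 to 1065, 1139 and 1115 (log2 change −1.06, SE 0.04), and its other probe set fell by 1.21. Klf6 went from 2328, 2355 and 2321 to 1441, 1399 and 1448 (log2 change −0.71, SE 0.03), and the log2 changes of its 5 probe sets, each called lower, ran from −0.71 to −0.91. Control and treated arrays were tightly grouped and well apart for both genes. Klf2 went from 297, 307 and 344 to 206, 189 and 200.3 (log2 change −0.67, SE 0.07). Klf10, a gene induced by TGF-beta, went from 446, 489.6 and 451 to 343, 313 and 319 (log2 change −0.51, SE 0.06). The adjusted p of the 4 genes lay between 3.7e-12 and 1.2e-06.

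The remaining transcription factors changed little or did not pass. Myc, a driver of growth and cell cycle entry, went from 529.9, 569.8 and 517 to 379.9, 384 and 428 (log2 change −0.44, SE 0.06, adjusted p = 6.5e-06). The small MAF factors lack a transactivation domain and act as partners of other factors. The difference for Mafk was −0.16 on the log2 scale (adjusted p = 0.035), and it was not called after quantile normalization (−0.06), after median centring (−0.04), without control replicate 2 or 3 (−0.12 and −0.15) or without rosiglitazone replicate 1, 2 or 3 (−0.13, −0.17 and −0.17). For Maff the log2 difference was −0.13 (95% CI −0.28 to 0.03, adjusted p = 0.15), and for Csrnp1, a nuclear factor, it was −0.09 (95% CI −0.33 to 0.16, adjusted p = 0.55). For Maff and Csrnp1 the treated and control arrays overlapped.

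**Figure D3:**
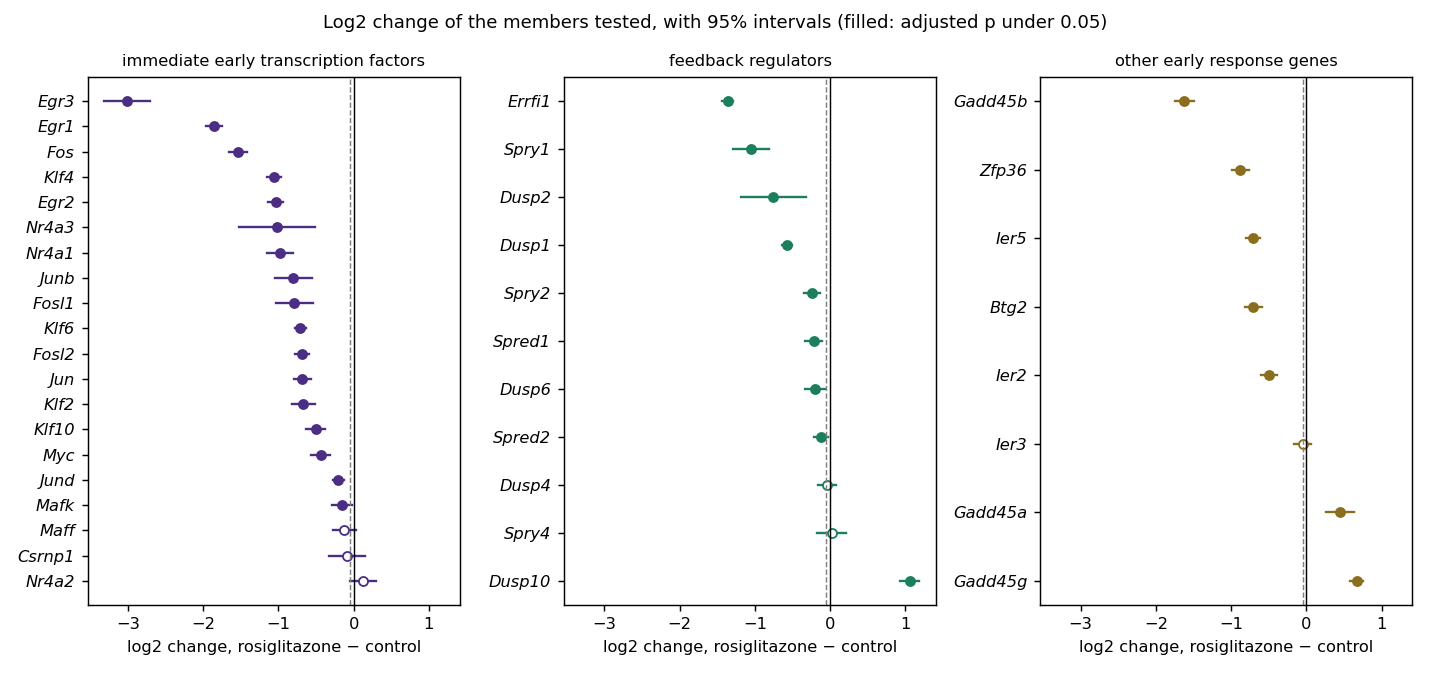
Log2 change with rosiglitazone (horizontal axis) for each of the 39 members tested, in 3 panels by class, with bars for the 95% interval and filled points for an adjusted p under 0.05. Values run from −3.01 for Egr3 to 1.06 for Dusp10; the dashed line is the median of all genes, −0.05, and open points mark the 6 members that did not pass.

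Among the feedback regulators the largest fall was in Errfi1, which encodes MIG6, the inducible inhibitor that binds the kinase domain of the epidermal growth factor receptor. In control cells it read 4496, 4521 and 4443, and in treated cells 1671, 1752 and 1826. It fell by 1.36 on the log2 scale (SE 0.03, adjusted p = 1.0e-14), and its second probe set fell by 1.504. The spread within each group was small against that difference.

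The Sprouty and SPRED genes, whose products restrain RAS activation downstream of receptor tyrosine kinases, fell unequally. Spry1 went from 228, 223 and 232 to 93.5, 104 and 137 (log2 change −1.05, SE 0.11, adjusted p = 4.1e-07), and the treated arrays were spread more widely than the control arrays. Spry2 went from 538, 538 and 569 to 453, 470.0 and 467, a change of −0.24 (SE 0.05, adjusted p = 0.00040) that was −0.12 after median centring and still called. Spry4 overlapped between the groups, at 376, 475 and 479.8 against 405, 433 and 510.2 (log2 change 0.02, 95% CI −0.17 to 0.21). The change of Spry4 was −0.09 without control replicate 1 and −0.07 without rosiglitazone replicate 3, and a dimmer probe set rose by 0.45 (adjusted p = 0.0088).

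The fall of Spred1 was small, at −0.22 on the log2 scale (adjusted p = 0.0016, SE 0.05), and it was not called after quantile normalization (−0.12), after median centring (−0.10) or with the mean of its probe sets (−0.11). That of Spred2 was smaller still, at −0.12 (adjusted p = 0.029, SE 0.05). It did not pass when control replicate 2 (−0.07) or rosiglitazone replicate 2 (−0.11) was left out, and after median centring its change was 0.00040. Read from their brightest sets, Spred1 and Spred2 were each lower on every treated array as deposited. The second set of Spred2 was higher on every treated array, at 105.8, 109.5 and 107.75 against 123.1, 109.7 and 111.3. That set was not called (log2 change 0.09, adjusted p = 0.44). The second set of Spred1 was called lower (−0.18), while its dimmer kept sets were not called, at −0.16 to 0.02.

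The dual-specificity phosphatases moved in both directions. Dusp1, the nuclear phosphatase MKP-1 that acts mainly on p38 and JNK, went from 2719, 2749 and 2719 to 1817, 1826 and 1862 (log2 change −0.57, SE 0.03, adjusted p = 7.8e-11). Dusp2, another nuclear member, was dim and went from 58.8, 56.2 and 80.3 to 43.8, 28.0 and 45.0 (log2 change −0.76, SE 0.20, adjusted p = 0.0042). Those 2 genes did not overlap between groups, though Dusp2 was not called with a floor of 64, where its change was −0.11. Dusp6, the cytoplasmic phosphatase specific for ERK and a common readout of ERK activity, went from 344, 384 and 349 to 303, 304 and 333 (log2 change −0.20, SE 0.06, adjusted p = 0.014). That call was lost after median centring (−0.07), after quantile normalization (−0.09), without control replicate 2 (−0.15) and without rosiglitazone replicate 1 or 2 (both −0.17). Dusp4, which is also induced by ERK, read 878, 970.5 and 901 in control cells and 825, 891 and 957 in treated cells (log2 change −0.04, 95% CI −0.16 to 0.07, adjusted p = 0.54). Dusp5 lay at 24.0, 19.4 and 16.1 in control cells and 11.9, 15.7 and 10.7 in treated cells, and was not tested.

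Dusp10 went against the other DUSP genes of the set that were called. It encodes MKP-5, a phosphatase with preference for p38 and JNK. In control cells it read 243, 266 and 278, and in treated cells 544, 542 and 553, a rise of 1.06 on the log2 scale (SE 0.06, adjusted p = 1.3e-10) that placed it at the 98.7 percentile of all genes. A dimmer probe set of Dusp10, at 31.8 to 45.2 over the 6 arrays, had a log2 change of 0.09 and did not pass (adjusted p = 0.71). With the mean of both sets Dusp10 rose by 0.58. Outside the set Dusp3, Dusp8, Dusp16 and Dusp22 were also called higher, while Dusp7 and Dusp14 were called lower.

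Among the other early response genes, the GADD45 family split. These small proteins respond to stress and growth arrest and can activate the kinase MTK1 upstream of p38 and JNK. Gadd45b, the member induced by TGF-beta and NF-κB, went from 528, 495 and 519 to 165, 163 and 174 (log2 change −1.62, SE 0.06, adjusted p = 8.5e-13). Its other 2 probe sets fell by 1.40 and 0.62. Gadd45g went the other way, from 711, 712 and 681 to 1108, 1122 and 1114 (log2 change 0.67, SE 0.04, adjusted p = 3.5e-10). Gadd45a, a p53 target, rose from 371, 527 and 454 to 628, 618 and 578 (log2 change 0.45, SE 0.09, adjusted p = 0.00039), and the control arrays were the more spread group. The rise of Gadd45a had an adjusted p of 0.067 without a filter on low values and of 0.050, just past the threshold, with a floor of 64. The direction of each GADD45 gene was kept under each scaling.

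Zfp36 encodes tristetraprolin, which destabilises AU-rich messenger RNAs of cytokines and early genes. It went from 896, 892 and 808 to 494, 444 and 475 (log2 change −0.88, SE 0.05, adjusted p = 5.2e-10). Btg2, an antiproliferative gene that promotes messenger RNA deadenylation, went from 879, 1012 and 1001 to 567, 604 and 599 (log2 change −0.71, SE 0.05), and its second probe set fell by 0.80. Both were lower on every treated array.

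Among the IER genes, named only as immediate early response genes, Ier5 went from 863, 915 and 916 to 556, 534 and 552 (log2 change −0.71, SE 0.04). Ier2 went from 606, 669 and 629 to 431, 459 and 459.9 (log2 change −0.50, SE 0.05). Ier3, a survival gene, did not separate the groups, at 475, 499.7 and 472 against 438, 468 and 493 (log2 change −0.05, 95% CI −0.17 to 0.07, adjusted p = 0.46). On the quantile normalized and median-centred scales the change of Ier3 was 0.05 and 0.07, not called.

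Several members were read by more than 1 probe set, which gives a second reading of the same RNA samples but no further replicate. The 41 genes had 82 probe sets, of which 69 passed the filter, and 17 genes kept more than 1. Of the 13 genes called lower among these, 9 had every kept set called lower in a fit over 23160 probe sets, in which 32.5% were lower, and 11 had every kept set below 0. The clearest disagreements among called members were those of Egr3, Fosl2 and Dusp10 described above. In each the set that was not called had the lower mean over all arrays. For Egr3 this held only through the control arrays. On the treated arrays its set that was not called was the brighter, with means of 50.4 against 27.0. Spry4 showed the opposite pattern: its brightest set was not called (0.02) and a dimmer set was called higher (0.45). Spred1 and Spred2 also had kept sets that were not called, reaching 0.02 for Spred1 and 0.09 for Spred2. Which transcripts each set reads was not tested.

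**Figure D4:**
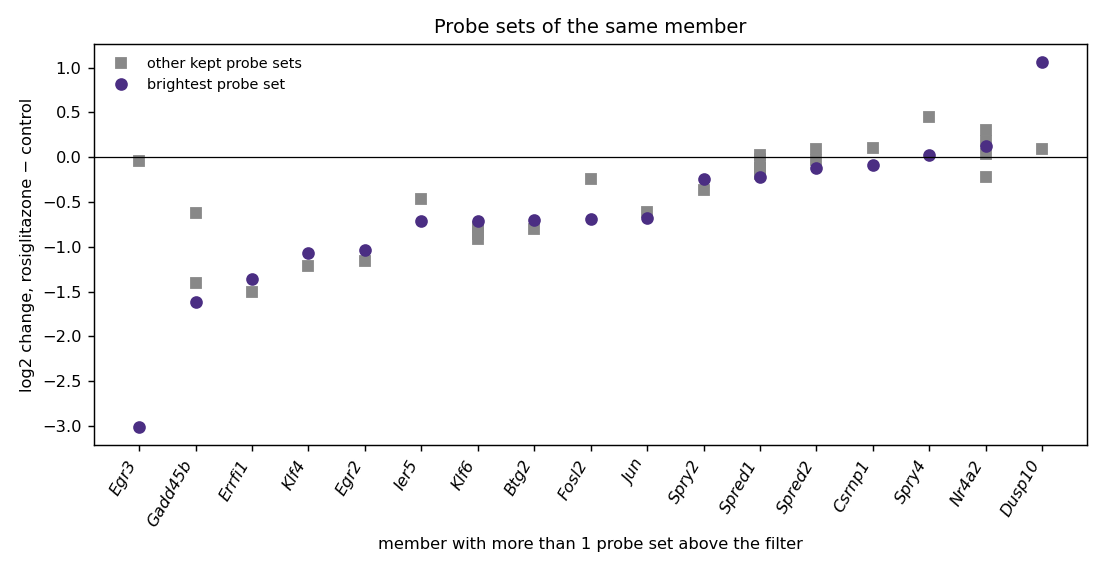
Log2 change with rosiglitazone (vertical axis) of each probe set above the filter for the 17 members with more than 1 (horizontal axis), with circles for the brightest set and squares for the others. Sets of Klf4, Klf6, Egr2, Errfi1, Btg2 and Jun lie together, whereas those of Egr3 (−3.01 and −0.04) and Dusp10 (1.06 and 0.09) lie far apart.

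The rest of the pathway was read from lists of textbook genes, which were chosen with earlier results of these data known. Among growth factor receptors and their ligands 11 of 24 tested fell and 4 rose, with a median log2 change of −0.30. The ligand gene Ereg (epiregulin) fell by 1.45, the receptor gene Pdgfra fell by 1.17 and the ligand gene Fgf7 fell by 1.11. In the list for the RAS to ERK cascade 6 of 15 fell and 4 rose, with a median of −0.11 and smaller changes. The adaptor gene Shc1 fell by 0.65, the scaffold gene Ksr1 fell by 0.35 and the kinase gene Map2k5 rose by 0.62. Of the related kinase genes, Map2k1 was not called (0.06) and Map2k2 rose by only 0.14. In the JNK and p38 cascade 5 of 13 fell and the other 8 did not pass, with a median of 0.0028. The largest of these falls, of 1.16, was in Map2k6, a kinase of p38 read from a dim probe set. Map2k6 passed the filter only through its control arrays, since its treated mean lay under the filter intensity of 26.6. None of those 13 was called higher in limma's test, and none was higher at an unadjusted p under 0.05. Over all genes 35.7% fell and 23.6% rose, with a median of −0.05.

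The same shares of all genes, 35.7% lower and 23.6% higher, are the background for the lists that follow. Of 14 nuclear factors and kinases that lie upstream of immediate early genes, 7 fell and 3 rose, with a median of −0.18. The ETS factor gene Elk3 fell by 0.65 and Mef2c fell by 0.63, while Rps6ka5, which encodes the histone and CREB kinase MSK1, rose by 0.70. Among other AP-1 partners and EGR co-repressors 5 of 10 fell and 2 rose (median −0.22), with Nab2 at −1.25, Maf at −0.90 and Jdp2 at −0.82. The other phosphatases and Sprouty family genes divided, with 5 of 9 higher and 4 lower: Dusp3 rose by 0.62, whereas Spred3 fell by 0.907 and Dusp14 fell by 0.76. Of 13 delayed targets of ERK and AP-1, 10 fell and 3 did not pass, with a median of −0.61. The largest of these falls were in the protease inhibitor gene Timp1 (−1.93), the urokinase gene Plau (−1.84) and the matrix protease gene Mmp3 (−1.79).

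**Figure D5:**
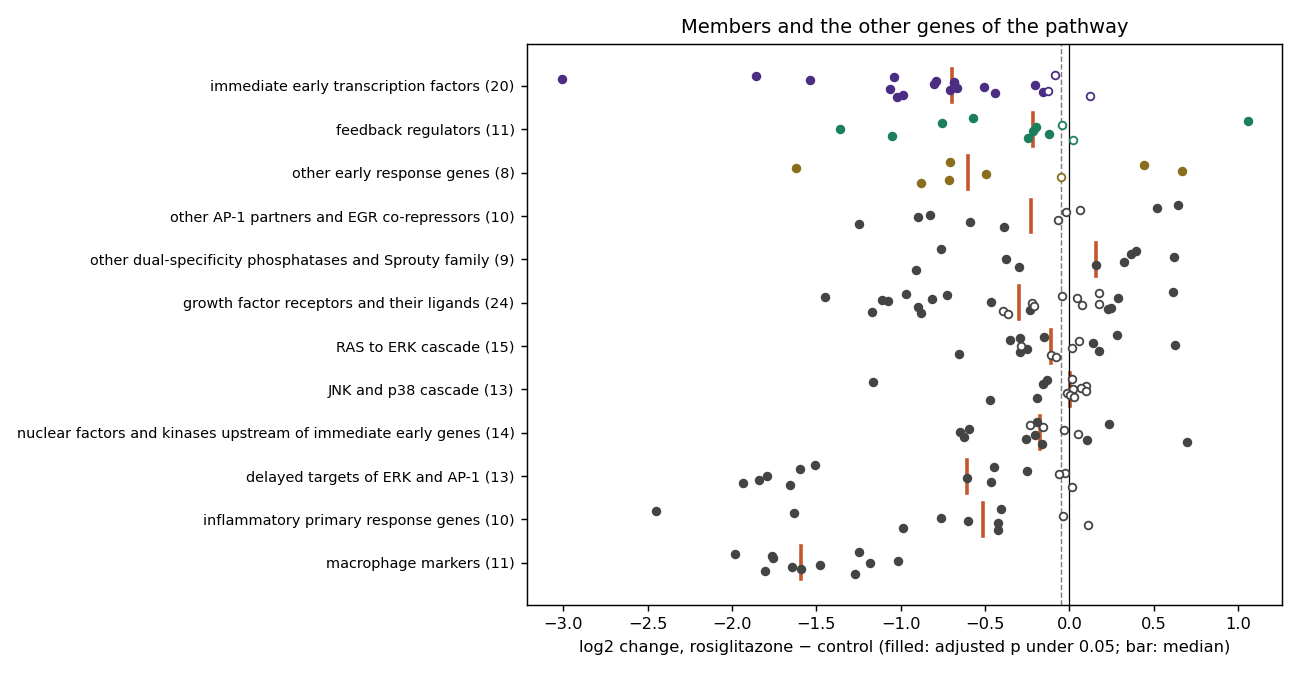
Log2 change with rosiglitazone (horizontal axis) of every tested gene in the 3 classes of the set, 8 other pathway lists and the macrophage markers (rows, with the number tested), with filled points for an adjusted p under 0.05, vertical bars at list medians and a dashed line at the median of all genes. The transcription factors (−0.70), the delayed targets (−0.61), the inflammatory genes (−0.51) and the macrophage markers (−1.59) lie to the left, and the RAS to ERK (−0.11) and the JNK and p38 lists lie near 0.

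Inflammatory primary response genes share inducers with this set, and 8 of 10 tested fell (median −0.51), led by the chemokine genes Ccl2 (−2.45) and Ccl7 (−1.63) and the cytokine signalling inhibitor gene Socs3 (−0.99). Of 10 genes of heat shock and handling stress 5 fell and 3 rose (median −0.12). The small heat shock protein gene Hspb1 fell by 1.11, and Hspa1b and Hspa1a had log2 changes of −0.85 and −0.66 and were called lower, though these last 2 genes are near-identical copies and their signals are uncertain.

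Markers of other cell types moved with the groups. Fat cell markers were abundant in both groups, 2 of 7 rising and 2 falling, with summed intensities over 7 genes of 70714 to 71830 in control cells and 72202 to 73402 in treated cells. Macrophage markers fell in 11 of 11 tested (median −1.59), and the summed intensity over 13 genes was 13119.8 to 14370 in control cells and 4424 to 4836 in treated cells, with Cd163 under the floor on every array. Fibroblast and progenitor markers fell in 7 of 8 tested, with sums of 21194 to 21689 and 11184 to 11632, and Dpp4 was under the floor throughout. Pdgfra and Pdgfrb, among those that fell, are also counted in the list of growth factor receptors and their ligands. Smooth muscle and pericyte markers fell in 4 of 7 and rose in 2, with sums of 8097 to 8555 and 4791.5 to 4906. Among those 4 falls is Cnn1, which passed the filter only through its control arrays, its treated mean lying under the filter intensity of 26.6. Endothelial markers fell in both of those tested, while Pecam1, Cdh5, Kdr, Emcn and Cldn5 did not pass the filter, with sums of 419 to 432 and 208 to 221. Of 3 lymphocyte markers tested only Ptprc, which macrophages also express, fell, with sums of 470.4 to 479 and 309 to 330.1, and Cd3e and Cd79a were under the floor. In such mixed samples fewer cells of a type and less RNA per cell cannot be told apart, and the part of these cells in the falls of the immediate early genes was not tested.

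The arrays themselves were closely matched within groups, with correlations of 0.973 to 0.978 over all probe sets, and medians over the 6 arrays lay between 44.65 and 46.81. The log2 difference between the control probe sets for the 3′ and 5′ ends of beta-actin, a sign of RNA integrity and of labelling, was 0.81 to 0.88 on control arrays and 1.195 to 1.365 on treated arrays. The same measure for Gapdh overlapped, at 0.07 to 0.16 and −0.02 to 0.14. The part of this difference in the changes of the members was not tested.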

How the data were processed

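RNA of the 6 samples was hybridised as biotinylated cRNA to Affymetrix mouse arrays, per the labels. The values used are the linear intensity of each probe set as deposited by the authors. Background correction, summarization and scaling are not given in the sources used here; 628 to 736 values per array were exactly 1. Of 45101 probe sets, 64 controls were left out, 34945 had 1 gene symbol in the platform annotation, 932 had several and 9160 were unnamed here. Intensities under 16 were set to 16 and log2 was taken. A filter removed the dimmest 40% of probe sets by their mean log2 intensity before that floor was set (under an intensity of 26.6). Each gene was read from its brightest probe set by the same mean. Groups follow the titles and the treatment characteristic, since the treatment text gives rosiglitazone for all samples. The test was limma 3.58.1 under R 4.3.3 (lmFit, then eBayes with a variance trend, two-sided), adjusted by Benjamini-Hochberg over 12936 genes at 0.05, and its script was tested on simulated data. The number of arrays limits the precision. With 3 arrays a group, 0.1 is the smallest p that an exact permutation test allows.

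Members and lists were chosen with earlier results of these data known. Every member was accounted for, and per-array values were printed for called members with a log2 change of at least 0.5 in size and for family partners beside them. Of other lists, up to 3 called genes with the largest change were named, apart from genes named for a limit or beside another gene. Alternatives were other filters, scalings, floors, probe set rules, variance models, array weights, a replicate block, each array left out, a stricter threshold and limma's treat. The second-brightest probe set was added after seeing the data.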

Additional observations from a re-analysis of the deposited data

How the results depend on the processing

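Of 33 members called, 12 were called in the same direction under each of the 20 alternatives in which they were tested (the added second probe set not counted) and 25 under all but limma's treat, which tests against a 1.5-fold change. With treat 321 genes were called higher and 881 lower, with 1 member higher and 11 lower, 7 transcription factors lower and 2 feedback regulators lower. Feedback regulators called lower numbered 5 without a filter, after quantile normalization, after median centring and with a floor of 64. In that order, the shares of all genes called lower were 23.2%, 29.1%, 25.2% and 31.5%. Without a filter all 41 members were tested, Dusp5 among them. Transcription factors called higher numbered 1 after quantile normalization and 1 after median centring (Nr4a2). As deposited 3047 genes were higher and 4614 lower. Quantile normalization gave 3936 higher against 3761 lower. Median centring gave 4544 higher against 3264 lower and moved the median of all genes by 0.12. Leaving out 1 array gave 2716 to 2945 genes higher and 4230 to 4488 lower, 27 to 30 members lower and 3 higher, 16 to 17 transcription factors lower and 6 to 8 feedback regulators lower. With the replicate number as a block 30 members were lower and 3 higher, and no member's call changed. Deviations of same-numbered arrays from their group means correlated at −0.025, −0.030 and 0.060. Those of differently numbered arrays correlated at −0.0757 to 0.0945. With so few arrays these values cannot tell whether same-numbered arrays shared a culture or a batch.

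Signs turned for 5 members, of which only Spred2 was called as deposited. Csrnp1 (−0.09) was 0.036 after median centring, 0.0096 with the mean of probe sets, 0.11 from its second probe set and −0.16 to 0.017 on leaving out 1 array. Dusp4 (−0.04) was 0.059 after quantile normalization, 0.081 after median centring and −0.095 to 0.012 on leaving out 1 array. Spry4 (0.02) ran from −0.094 to 0.092 on leaving out 1 array. Ier3 (−0.05) was 0.051 after quantile normalization and 0.072 after median centring. Spred2 (−0.12) was 0.00040 after median centring and 0.089 from its second probe set. The cause was not tested. Dim probe sets near the floor, such as those of Nr4a3 and Dusp2, are limited by signal over background.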
